A study of Mus musculus with 6 samples.

Results

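The hypoxia-inducible factor (HIF) subunits and the enzymes that report oxygen to them were followed through chemotherapy in mouse colorectal cancer organoids. The set was given by name and holds 9 genes of the 24190 listed in the count table, namely the alpha subunits Hif1a, Epas1 and Hif3a, their partner Arnt, the prolyl hydroxylases Egln1, Egln2 and Egln3, Vhl, and the asparaginyl hydroxylase Hif1an. All 9 passed the expression filter that left 14692 genes for testing. Within the set, Hif3a, Egln1 and Egln3 are known to be induced by HIF itself and were set against the 6 others. RNA came from parental MTO54, a mouse tumor organoid (MTO) line of colorectal cancer labelled AKP, a genotype that every sample shares. Single cells were seeded in basement membrane extract, and 2 days later the medium was replaced for 2 days, either by Folfiri (5FU at 50 μg/μl, the unit as given, with SN38 at 100 nM; 3 samples) or by fresh control medium (3 samples). The duration is that of the labels, and the study gives a longer one for chemotherapy of MTOs in another place. All 6 samples are cultures of this single line, so p values describe the spread between these cultures. Epithelial markers checked the label, with summed levels of at least 4647 CPM (read counts scaled to library size) in every sample.

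In normal oxygen, the EGLN enzymes (also called PHDs) hydroxylate prolines of the HIF alpha subunits, and the VHL protein binds the hydroxylated form and directs it to the proteasome. When oxygen falls, alpha subunits escape this mark, pair with ARNT and bind hypoxia response elements, whose core is ACGTG or GCGTG. HIF1AN adds a separate mark on an asparagine that keeps coactivators away, and HIF raises transcription of Egln1 and Egln3, which closes a feedback loop. HIF abundance is therefore set mostly at the protein level, which gene counts do not measure. In the intestine the pathway is known for its part in glycolysis and iron uptake and in the barrier that faces a poorly oxygenated lumen.

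Promoters of the 3 HIF-induced members and of Hif1an are shown because the former fell most and the latter was the member that rose. They are the 250 bases before the RefSeq start site on GRCm38.p6, written 5′ to 3′ on the strand of the gene, and capitals mark every ACGTG or GCGTG core read on either strand (CACGT and CACGC on the other).
Hif3a (chr7:17062428-17062677, minus strand): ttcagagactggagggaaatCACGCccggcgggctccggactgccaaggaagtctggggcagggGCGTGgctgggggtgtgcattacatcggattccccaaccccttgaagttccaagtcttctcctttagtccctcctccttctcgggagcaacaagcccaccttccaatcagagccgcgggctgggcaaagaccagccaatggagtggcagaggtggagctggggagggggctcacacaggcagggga
Egln1 (chr8:124949255-124949504, minus strand): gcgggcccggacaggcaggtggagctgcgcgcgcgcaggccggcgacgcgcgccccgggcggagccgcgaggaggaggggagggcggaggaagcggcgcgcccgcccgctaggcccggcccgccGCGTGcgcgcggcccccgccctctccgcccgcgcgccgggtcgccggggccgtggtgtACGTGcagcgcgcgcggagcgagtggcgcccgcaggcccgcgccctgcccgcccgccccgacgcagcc
Egln3 (chr12:54203875-54204124, minus strand): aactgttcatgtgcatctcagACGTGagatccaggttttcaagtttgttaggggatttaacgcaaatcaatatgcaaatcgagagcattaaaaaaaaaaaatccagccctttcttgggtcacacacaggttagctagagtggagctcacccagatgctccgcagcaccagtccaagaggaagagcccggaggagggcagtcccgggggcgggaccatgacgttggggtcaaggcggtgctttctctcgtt
Hif1an (chr19:44562604-44562853, plus strand): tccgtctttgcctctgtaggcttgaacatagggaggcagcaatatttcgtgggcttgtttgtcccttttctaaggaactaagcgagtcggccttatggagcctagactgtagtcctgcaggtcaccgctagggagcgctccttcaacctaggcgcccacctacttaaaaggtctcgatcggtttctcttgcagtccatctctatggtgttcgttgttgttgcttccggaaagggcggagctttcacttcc
The promoter table covered 8 of the 9 genes, with 9 promoters between them, and Epas1 was not analysed here for this feature. In windows of 300 bases, from 250 before to 50 after the start, at least 1 core was found for 3 of 3 HIF-induced members and for 3 of the 5 others (Hif1a, Arnt and Egln2), while Vhl and Hif1an held none. Of all 32851 promoters in the table, 43.8% held at least 1 of the cores, 19.6% ACGTG and 32.4% GCGTG. Egln2 had the most, with 6 matches in the window of its first promoter, 2 of which are the same palindromic site read on both strands. In Egln1 the ACGTG begins at position -68 from the start, and in Egln3 at position -229. A match of these letters is a description of the window and not evidence of a bound site.

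After Folfiri, 7 of the 9 genes were lower and 1 was higher at an adjusted p under 0.05 (edgeR's quasi-likelihood test, Benjamini-Hochberg adjustment over all tested genes), and 1 did not pass. Of all tested genes, 38.8% were called lower, 40.3% higher and 79.1% in either direction, so a call alone sets no gene apart here. Samples of the groups did not overlap for 7 lower genes and 1 higher gene, against 39.9%, 41.6% and, in either direction, 81.4% of all tested genes. The 3 HIF-induced members had log2 fold changes from -4.69 to -1.89, and the 6 others from -1.29 to 0.51, so the ranges did not overlap. Falls of at least 2-fold were seen in 5 of the 9 genes, against 16.8% of all tested genes. In bulk RNA, fewer cells expressing a gene and less RNA per cell cannot be told apart.

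Sample totals ranged from 22103591 to 30098210 counts. TMM factors, which correct for RNA composition, were 0.88 to 0.966 in controls and 1.1 to 1.11 after Folfiri. Scaling by total counts only, without these factors, moved the median log2 fold change of all genes from 0.02 to 0.30, a shift of 0.28. A change of scaling moves every gene by nearly the same amount. Values relative to the median of all genes are therefore nearly fixed in advance, such as -4.71 and -4.72 for Hif3a, and are no check. Levels below are TMM-scaled CPM, and comparisons between genes use CPM per kilobase of merged exons.

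**Figure D1:**
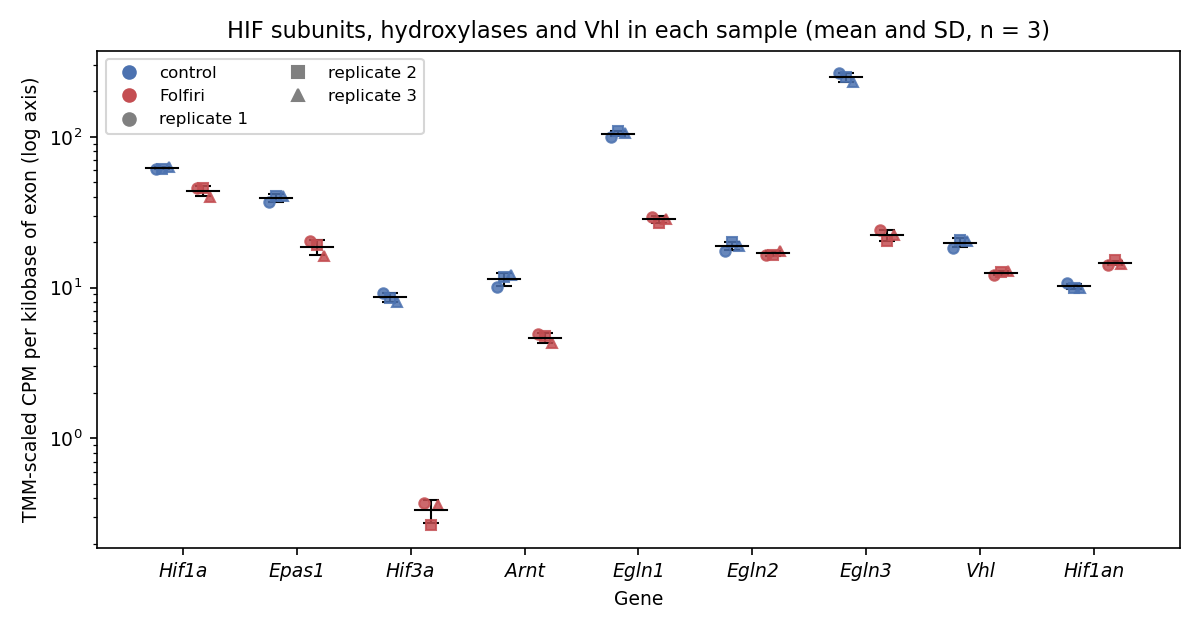
Level of each of the 9 genes in every sample, as TMM-scaled CPM per kilobase of exon on a log axis, with blue for control, red for Folfiri, a marker shape per replicate, and bars for mean and SD (n = 3). Hif3a, Egln1 and Egln3 show the widest gaps between groups, Egln2 overlaps, and Hif1an alone lies higher after Folfiri.

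Egln3 encodes PHD3, the prolyl hydroxylase most strongly induced by hypoxia in many cell types. The gene (ENSMUSG00000035105) lies on chromosome 12 of GRCm38 from 54178981 to 54203860 on the minus strand. It stood at 701, 661 and 615 CPM in control replicates 1, 2 and 3, and at 64.5, 54.0 and 59.0 CPM in the Folfiri replicates. Every treated sample was far below every control. On the log2 scale the change was -3.48 (SE 0.0963, adjusted p = 1.61e-09 from edgeR), or 11.1-fold lower, and only 0.742% of tested genes fell as far.

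Egln1 encodes PHD2, regarded as the main oxygen sensor of the family. It (ENSMUSG00000031987, chromosome 8, 124908587 to 124949324, minus strand) gave 360, 391 and 382 CPM in the control samples and 106, 96.5 and 103 CPM after Folfiri. The groups were widely separated and each was tight. The level fell by 1.89 on the log2 scale (SE 0.0743, adjusted p = 8.89e-09, edgeR), which is 3.7-fold lower, and 5.69% of tested genes were as low or lower.

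Egln2 encodes PHD1, which is not known as a hypoxia-induced member. The gene (ENSMUSG00000058709, chromosome 7, 27158658 to 27166802, minus strand) was at 49.3, 56.1 and 52.8 CPM in controls and at 46.1, 46.1 and 49.4 CPM after Folfiri. Folfiri replicate 3 lay just above control replicate 1, so the groups overlapped. The estimated log2 change of -0.16 (SE 0.0783, adjusted p = 0.0848, edgeR) was not called. With total counts only it became 0.12 (adjusted p = 0.156), and without control replicate 1 it was -0.20 and passed the threshold (adjusted p = 0.0132).

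The balance of the 3 prolyl hydroxylases therefore shifted. Summed over the 3 genes, their level per kilobase averaged 371.5 ± 13.4 CPM in control samples and 67.4 ± 3.43 CPM in treated samples (mean ± SD of 3). Egln3 made up 69.1%, 65.9% and 64.9% of that sum in the control samples and 34.5%, 31.9% and 32.4% in the treated ones. Egln2 went from 5.07% ± 0.396 to 25.0% ± 1.36 of the sum (mean ± SD of 3 samples), while its own level stayed within the overlap described above. Egln1 went from 28.3% ± 1.83 to 42.0% ± 0.168 (mean ± SD of 3 samples) and became the leading one, since it fell less than Egln3. Each share separated the groups (p = 0.1 by an exact permutation over samples, two-sided, before and after adjustment over the 6 shares; 3 against 3 allow none smaller). These shares do not depend on how samples were scaled.

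**Figure D2:**
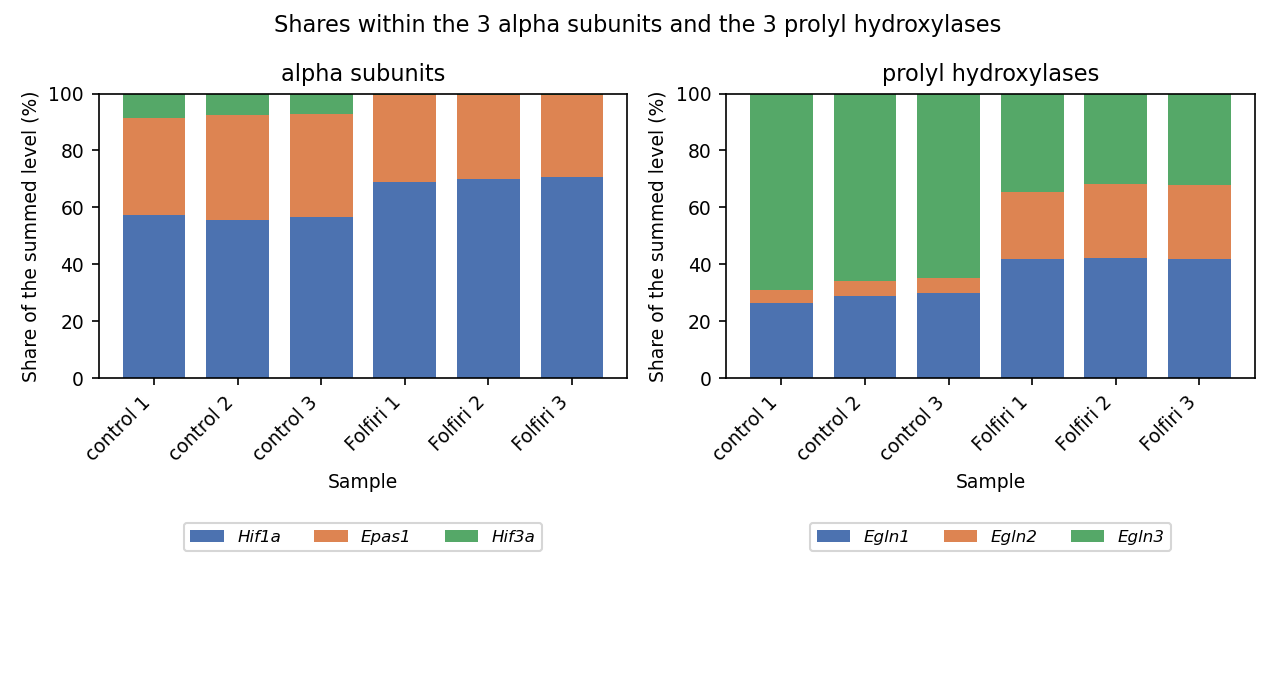
Share of the summed level per kilobase taken by each alpha subunit (left) and each prolyl hydroxylase (right) in the 6 samples, in percent. Egln3 takes 64.9% to 69.1% in controls and 31.9% to 34.5% after Folfiri, and the Hif3a share falls from at least 7.16% to at most 0.642%.

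Among the alpha subunits, Hif3a changed most. Its product lacks the C-terminal activation domain found in the other alpha subunits, and short splice forms can restrain them; the counts are per gene and do not separate the 4 annotated transcripts. Hif3a (ENSMUSG00000004328, chromosome 7, 17031507 to 17062427, minus strand) gave 61.7, 57.4 and 53.9 CPM in controls and 2.48, 1.78 and 2.43 CPM after Folfiri, from 1048 to 1713 reads in controls and from 55 to 80 after treatment. No treated sample came near a control. The log2 fold change was -4.69 (SE 0.127, adjusted p = 1.61e-09, edgeR), 25.8-fold lower, and it ranked 18 from the lowest of the 14692 tested genes.

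Hif1a encodes HIF-1 alpha, the broadly expressed subunit known for driving glycolytic genes. It (ENSMUSG00000021109, chromosome 12, 73901375 to 73947530, plus strand) stood at 363, 362 and 374 CPM in controls and 268, 269 and 235 CPM after Folfiri. The treated samples were all lower, with replicate 3 the lowest. The change was -0.51 on the log2 scale (SE 0.0773, adjusted p = 0.000119, edgeR) and became -0.23 (adjusted p = 0.0166) with total counts only. Annotated exons of Gm15283 on the opposite strand cover 5.6% of the Hif1a exons and those of Gm49321 on the same strand 2.51%, with no reads listed for either. Strand setting is not given in the sources used here, so reads from overlapping genes cannot be told apart from these counts.

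Epas1 encodes HIF-2 alpha, the subunit tied in the gut to iron uptake. It (ENSMUSG00000024140, chromosome 17, 86753700 to 86833410, plus strand) was at 205, 227 and 228 CPM in controls and 113, 108 and 90.0 CPM after Folfiri. Treated samples did not reach the lowest control. Its level fell by 1.08 on the log2 scale (SE 0.0937, adjusted p = 1.61e-06, edgeR), or 2.12-fold. Epas1 is also abundant in endothelium, and of 7 endothelial markers Pecam1, Kdr, Tek, Emcn and Tie1 had at most 16 reads in any sample, whereas Cdh5 averaged 89.8 CPM in controls and 70.6 CPM after Folfiri (adjusted p = 0.0967, edgeR) and Vwf 7.97 and 3.65 CPM (adjusted p = 7.61e-05). The sum of the 7 was 79.8 to 133 CPM in controls and 69.2 to 79.5 CPM after Folfiri, and its part in the Epas1 result was not tested.

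Because Hif1a fell least, it took a larger share of the alpha subunits. Hif1a accounted for 56.5% ± 0.855 of their summed level in controls and 69.9% ± 1.02 after Folfiri, and Epas1 for 35.7% ± 1.36 and 29.6% ± 1.05 (mean ± SD of 3 samples). Hif3a dropped from 7.82% ± 0.703 to 0.535% ± 0.12 (mean ± SD of 3 samples). The groups were separate for each subunit (again p = 0.1, exact permutation). The sum itself went from 110.1 ± 2.43 to 62.6 ± 5.42 per kilobase (mean ± SD of 3 samples).

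Arnt encodes HIF-1 beta, the common partner of the alpha subunits and of the aryl hydrocarbon receptor. Arnt (ENSMUSG00000015522, chromosome 3, 95434388 to 95497240, plus strand) gave 81.1, 94.2 and 97.0 CPM in controls and 39.2, 38.0 and 34.2 CPM after Folfiri. All treated samples were less than the lowest control. The log2 fold change of -1.29 (SE 0.0912, adjusted p = 3.91e-07, edgeR) exceeded that of Hif1a, so the ratio of Hif1a to Arnt per kilobase went from 5.51 ± 0.487 to 9.43 ± 0.188 (mean ± SD of 3 samples). Arnt had the largest fall among the 6 members not counted as HIF-induced.

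Vhl encodes the substrate receptor of the ubiquitin ligase that removes hydroxylated HIF alpha. It (ENSMUSG00000033933, chromosome 6, 113623959 to 113631633, plus strand) was at 55, 62.3 and 61.3 CPM in control MTOs and 36.3, 38.1 and 38.4 CPM in treated ones, without overlap. This was a log2 change of -0.66 (SE 0.0784, adjusted p = 1.75e-05, edgeR), and -0.38 (adjusted p = 0.000727) with total counts only.

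Hif1an, the asparaginyl hydroxylase known as factor inhibiting HIF, was the member that rose. It (ENSMUSG00000036450, chromosome 19, 44562850 to 44576274, plus strand) gave 70.5, 66.1 and 66.1 CPM in controls and 93.8, 100.2 and 94.7 CPM after Folfiri. The lowest treated sample was above the highest control. It rose by 0.51 on the log2 scale (SE 0.0688, adjusted p = 4.76e-05, edgeR), and by 0.78 with total counts only, and 33.0% of tested genes rose as much or more. Per kilobase, the ratio of Hif1an to Hif1a was 0.173, 0.163 and 0.158 in the control samples and 0.312, 0.332 and 0.359 in the treated ones.

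**Figure D3:**
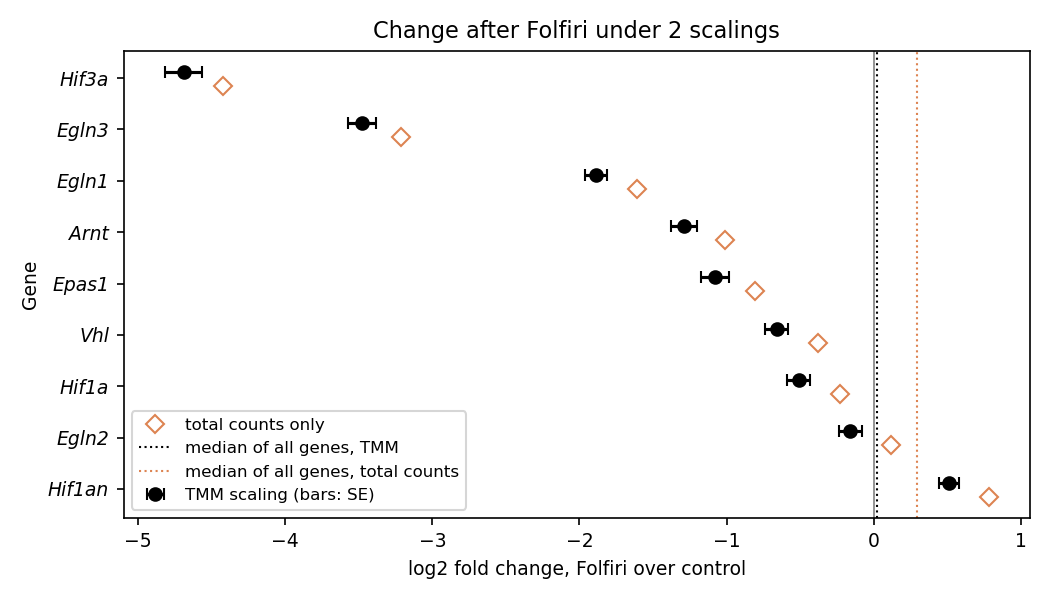
Change of each gene after Folfiri on the log2 scale, as the edgeR estimate with TMM scaling (black, bars for SE) and with total counts only (orange), beside the median of all tested genes under each scaling (dotted lines at 0.02 and 0.30). Hif3a, Egln3 and Egln1 lie lowest, Egln2 crosses 0 with total counts only, and the other 8 genes keep their sign.

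The order of the levels changed accordingly. In controls, Egln3 led at 248 CPM per kilobase, followed by Egln1 at 105, Hif1a at 62.1, Epas1 at 39.3, Vhl at 19.9, Egln2 at 18.8, Arnt at 11.3, Hif1an at 10.2 and Hif3a at 8.59 CPM per kilobase. The neighbours Vhl and Egln2, and Arnt and Hif1an, overlapped between samples. After Folfiri, Hif1a led at 43.7, with Egln1 at 28.3, Egln3 at 22.2, Epas1 at 18.5, Egln2 at 16.9, Hif1an at 14.6, Vhl at 12.5, Arnt at 4.64 and Hif3a at 0.332 CPM per kilobase. There Egln3 could not be separated from Epas1, nor Epas1 from Egln2, by the range of their samples.

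**Figure D4:**
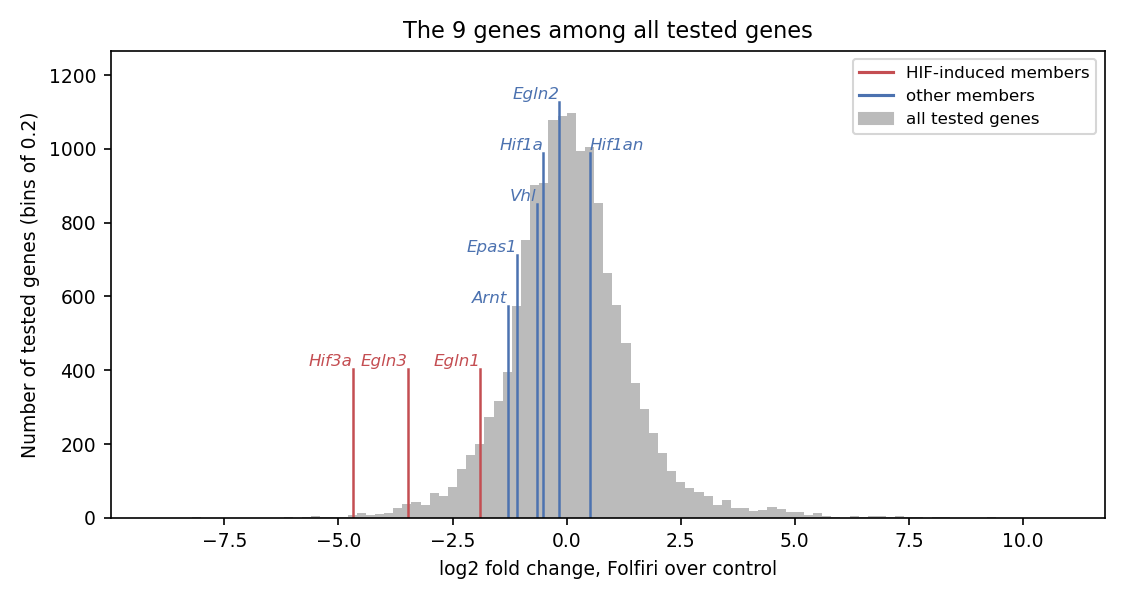
Distribution of the log2 fold changes of all 14692 tested genes (grey, bins of 0.2) with the HIF-induced members in red and the other members in blue, as lines whose height carries no value. Hif3a and Egln3 lie in the far lower tail, where 0.123% and 0.742% of genes are as low, while Egln2 sits near the centre.

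Genes with the most similar profile were sought by Euclidean distance between log2 CPM values centred on each gene's mean over the 6 samples, a measure that the size of the group difference dominates. For Hif3a the nearest were Myh7b (distance 0.277) and Plod2 (0.443). For Egln3 they were Pdk1 (0.246), Grik5 (0.275) and Cbs (0.308), and for Egln1 they were Pkn3 (0.082), Ascc1 (0.0866) and Khk (0.0884). Plod2 encodes a lysyl hydroxylase of collagen and Pdk1 a kinase that restrains pyruvate entry into mitochondria, and they went from 90.3 to 3.98 CPM and from 283 to 22.7 CPM.

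The genes downstream of HIF were counted from a list of 24 textbook targets, all of them tested. After Folfiri 22 were lower, 1 was higher and 1 did not pass (edgeR), and the median log2 fold change was -2.29 against 0.02 for all tested genes. Each of the 22 fell by at least 2-fold. Of all tested genes 38.8% were lower, 40.3% higher and 16.8% lower by at least 2-fold. The lowest were Adm, a vasodilator peptide, at -5.77 (SE 0.229, adjusted p = 9.35e-09), Ddit4, an inhibitor of mTORC1, at -4.3 (SE 0.143, adjusted p = 3.95e-09), and Ndrg1, a stress-responsive gene, at -4.29 (SE 0.12, adjusted p = 1.61e-09, all from edgeR). Angptl4, an inhibitor of lipoprotein lipase that also responds to PPAR receptors, went the other way, from 0.908 ± 0.286 to 10.3 ± 1.32 CPM (mean ± SD of 3 samples), which is 3.46 on the log2 scale (SE 0.205, adjusted p = 1.2e-07, edgeR). Pfkfb4 had a log2 fold change of 0.08 (adjusted p = 0.471, edgeR), and 0.36 (adjusted p = 0.0145) with total counts only. Kdm3a, P4ha1 and P4ha2 are also in lists below, and without them 19 of 21 were lower. Exons of Gm17035 lie opposite 6.35% of the Ndrg1 exons, with no reads listed.

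Of 3 HIF-2 target genes of intestinal iron handling 2 were tested, and 1 of them was called, where 79.1% of all tested genes were. Slc11a2, the apical iron transporter, rose from 45.9 ± 2.42 to 86.4 ± 6.95 CPM (mean ± SD of 3 samples), or 0.91 on the log2 scale (SE 0.0832, adjusted p = 2.48e-06, edgeR). Slc40a1, the iron exporter ferroportin, had a log2 change of -0.16 (adjusted p = 0.104, edgeR), which was 0.12 (adjusted p = 0.284) with total counts only. Exons of Gm5475, which had 1 to 8 reads, lie opposite 6.33% of those of Slc11a2. Cybrd1, the iron reductase of the brush border, had at most 5 reads in any sample and was not tested.

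Partners of VHL in its ligase had small changes. Of Elob, Elobl, Eloc, Cul2 and Rbx1, 4 were tested, and 2 were higher and 1 lower (edgeR), near the 79.1% called among all tested genes. The adaptor Eloc rose by 0.57 on the log2 scale (SE 0.077, adjusted p = 4.86e-05, edgeR) and Elob by 0.24 (adjusted p = 0.0345), the scaffold Cul2 fell, with a log2 fold change of -0.36 (adjusted p = 0.000865), and the RING protein Rbx1 had one of -0.07 (adjusted p = 0.431). With total counts only Cul2 was at -0.08 and was not called (adjusted p = 0.312), and Rbx1 was at 0.21 (adjusted p = 0.0121). Without control replicate 1, control replicate 2 or Folfiri replicate 3, 1 of these genes was higher in place of 2. Elobl had at most 2 reads.

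Of 5 coactivators and their competitors 3 were higher and 1 lower (edgeR), so that 4 were called, near the 79.1% of all tested genes. Ep300 and Crebbp, acetyltransferases that HIF recruits, had log2 fold changes of 0.53 (adjusted p = 0.00132) and 0.92 (adjusted p = 0.00131). Cited2, which competes with HIF alpha for these proteins, rose from 37.0 ± 0.582 to 61.3 ± 0.827 CPM, and Cited1 fell from 762 ± 106 to 121 ± 6.15 CPM (mean ± SD of 3 samples), or -2.65 on the log2 scale (SE 0.111, adjusted p = 1.27e-08, edgeR). Cited4 stood at 2.08 CPM in controls and 1.75 CPM after Folfiri (adjusted p = 0.295).

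Among 13 genes known to act on the stability of HIF or of the PHDs, 4 were higher, 6 lower and 3 did not pass, against 40.3% higher and 38.8% lower among all tested genes. With total counts only 6 were higher and 4 lower. Siah2, a ubiquitin ligase for PHD3, fell from 52.2 to 17.1 CPM, or -1.61 on the log2 scale (SE 0.0873, adjusted p = 6.58e-08, edgeR). Its relatives Siah1b and Siah1a rose by 1.21 and 0.58 on the log2 scale (adjusted p = 9.42e-07 and 0.000217); near-identical copies such as these can share reads. The chaperone gene Hsp90aa1 rose by 0.84 (adjusted p = 5.91e-06, edgeR), while its relative Hsp90ab1, named after its values were seen, fell from 4066 to 2675 CPM, or -0.60 on the log2 scale (adjusted p = 0.000305). Rack1 and Cul3 had log2 fold changes of -1.09 and -0.67 (edgeR, adjusted p = 3.72e-06 and 1.38e-05). The median of the list was -0.02, and 0.26 with total counts only.

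**Figure D5:**
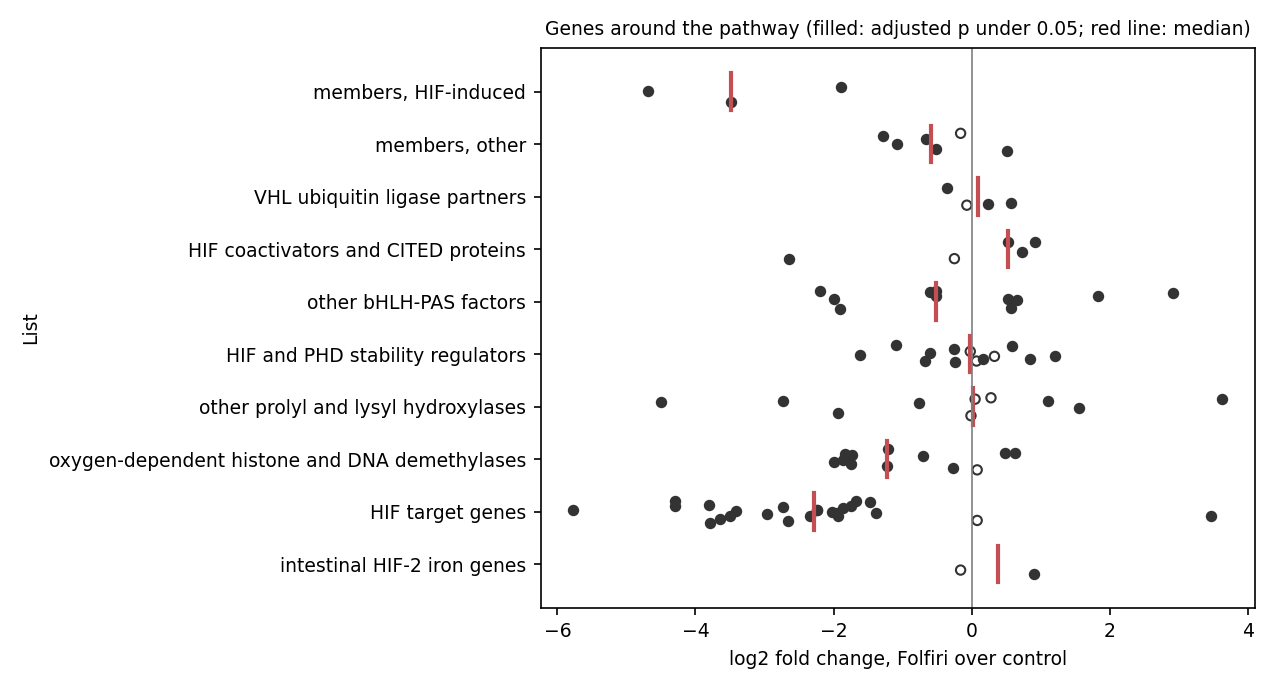
Log2 fold change of each tested gene in the 2 groups of members and in the 8 lists around them, with filled points for an adjusted p under 0.05 (edgeR), open points for the rest, and a red line at the median. The HIF target genes have a median of -2.29, the VHL partners one of 0.09 and the regulators of HIF and PHD stability one of -0.02.

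Fibroblast and immune markers were low, while Cdh5 of the endothelial list, described above with Epas1, averaged 89.8 CPM in controls. Summed levels of 7 fibroblast markers were 1.08 to 1.44 CPM in controls and 2.03 to 2.45 CPM after Folfiri, with Dcn and Pdgfra called higher and Col1a1 lower. The 7 immune markers summed to 21.3 to 26.0 CPM in controls and 21.4 to 22.4 CPM after Folfiri, nearly all of it Cd68, with Ptprc called higher at 0.396 and 1.06 CPM. The defining markers Lum and Cd3e were not detected in any sample. Of 8 epithelial markers 4 were lower and 1 higher, beside 38.8% and 40.3% of all tested genes, and their sum was 5731 to 6638 CPM in controls and 4647 to 4818 CPM after Folfiri. Their part in the changes of the 9 genes was not tested.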

How the data were processed

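RNA of MTO54 organoids was sequenced in 3 control and 3 Folfiri samples, grouped by their titles. The authors aligned the reads with STAR 2.5.2 to the mouse genome (mm10, GRCm38) with a GENCODE annotation, summed reads by gene using Rsubread, and deposited raw counts without normalization. Strand setting and treatment of reads with several positions are not given in the sources used here. Gene symbols, positions and exon lengths came from GENCODE vM21 on the same build, an earlier release than that of the authors, and matched 24168 of the 24190 listed genes.

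From the counts, edgeR 4.0.16 (R 4.3.3) was run on the whole table with its default expression filter, TMM normalization and the quasi-likelihood test, group as the only term. P values were adjusted by Benjamini-Hochberg over 14692 genes, with a threshold of 0.05. Shares were compared by exact permutation. The procedure was tested on simulated data. The genes, the lists around them and the rule for named genes (all members, whole lists of up to 5 genes, and up to 3 genes per direction in longer lists, by size of change among called genes with separate groups, and the 3 nearest profiles of the 3 members that changed most) were chosen with earlier results of these data known, so no list was tested as a set. Genes named outside this rule (markers, Pfkfb4, Hsp90ab1) were picked with their values known. Alternatives were other scalings, other filters, the Wald test of DESeq2 1.42.0, the replicate number as a block and each replicate left out. Promoter sequences are from RefSeq (GRCm38.p6). Replicates of a group differed by more than sampling noise, with a chi-square per degree of freedom of at least 3.55, so none was counted as a second deposit. Control replicate 1 stood apart, at 23.7 and 22.4 from replicates 2 and 3, against 3.84 between those. Folfiri replicate 3 was at 12.3 and 11.9 from replicates 1 and 2, against 3.55 between those. Depth limits low genes most, and the edgeR test estimates variation between replicates along with counting error. Protein sequences were not used here. Some items are not reported here.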

Additional observations from a re-analysis of the deposited data

How the results depend on the processing

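Of the 117 fold changes obtained for the 9 genes under 13 alternatives, 115 kept their direction and their side of the threshold. The exceptions were both Egln2, at 0.12 on the log2 scale with total counts only, where its sign changed, and at -0.20 without control replicate 1, where it passed the threshold. The set had 7 genes lower and 1 higher under the 13 alternatives, except without control replicate 1, where 8 were lower; over the left-out replicates the range was 7 to 8. The number of called genes stayed between 10630 and 12742 under the scalings, filters and tests, and was 11758 with DESeq2. Deviations of same-numbered samples had correlations of 0.0267, -0.117 and 0.0393, and those of other-numbered samples ranged from -0.118 to 0.12. With 3 samples a group, these values cannot decide whether the numbers pair the cultures. The fit with the replicate number as a block called 11499 genes and changed no call among the 9. It gave log2 fold changes of -4.69 for Hif3a, -3.48 for Egln3 and -1.89 for Egln1.

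With total counts only, the share of higher genes among all calls was 63.3% in place of 51.0%. The median of all genes was 0.28 higher. In the lists, 0 VHL partners were lower in place of 1, and 3 PAS-domain factors in place of 6. Higher were 5 other hydroxylases in place of 3, and 2 HIF targets in place of 1. The regulators of HIF and PHD stability had 6 higher and 4 lower in place of 4 and 6. Leaving out replicates gave from 1 to 2 VHL partners higher. With the length of the longest transcript, the difference in share was -6.66 points for Hif3a, 11 for Egln1 and 24.1 for Egln2, and without length correction -8.35 for Hif3a and 17.9 for Egln2, each in the same direction. With 3 samples a group, the exact test of a share cannot go below 0.1.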

Other observations

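The HIF hydroxylases belong to a larger family of enzymes that use oxygen, iron and 2-oxoglutarate, and 2 further groups of it were counted. Of 12 tested histone and DNA demethylases 9 were lower and 2 higher after Folfiri (edgeR), against 38.8% lower and 40.3% higher among all tested genes, with a median log2 fold change of -1.22. The largest falls were those of Kdm4c at -1.99, Kdm3a at -1.86 and Kdm4b at -1.83, which remove methyl groups from histone H3, and the genes that rose were Tet3 at 0.63 and Kdm3b at 0.48. Of 10 tested prolyl and lysyl hydroxylases outside the EGLN family, 4 were lower and 3 higher, shares near those of all tested genes. Plod2 went from 90.3 ± 5.79 to 3.98 ± 0.365 CPM, P4ha1 from 292 ± 47.1 to 44.1 ± 3.76 CPM and P4ha2 from 115 ± 14.3 to 30.0 ± 1.77 CPM (mean ± SD of 3 samples), and all of them modify collagen. P3h1 and P3h2 rose to means of 2.55 and 2.96 CPM, and P4htm, a membrane-bound relative of the EGLN enzymes, had 0 to 1 reads in controls and 11 to 13 after Folfiri. Antisense exons of Gm4524 cover 28.4% of P3h2, those of Gm26538 cover 24.6% of Kdm3b and those of Gm38391 cover 6.42% of Plod2. No reads were listed for Gm4524 or Gm26538, and Gm38391 had 4 to 7.

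Of 11 tested factors with PAS domains like the HIF subunits, 5 were higher and 6 lower (edgeR). With total counts only, 3 were lower. Among all tested genes, 40.3% were higher and 38.8% lower. The clock genes Per3 and Per1 had log2 fold changes of -2.20 and -2.0, and Npas2 of -1.90. Those that rose most were Npas1 at 2.91, from 0.454 ± 0.0968 to 3.38 ± 0.227 CPM (mean ± SD of 3 samples), Arntl2 at 1.83 and Ahr, the aryl hydrocarbon receptor that also pairs with ARNT, at 0.66.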
